A study of Mus musculus with 42 samples.

Results

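The 9 genes described here encode enzymes that break down amino acids: Ftcd, Prodh2, Prodh, Gldc, Hgd, Hpd, Agxt2, Bhmt2 and Dao. Ftcd and Prodh2 were picked because their RNA was higher in kidneys of mice fed EpSA (epoxystearic acid, an oxidised fatty acid formed in heated oil), and the other 7 were added for their shared function. They are 9 of the 56691 genes in the deposited tables, and 9 of 9 were among the 13344 genes abundant enough to test. The 2 genes chosen on the diet contrast are described there without a test, and that contrast was tested for the other 7 only.

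RNA was sequenced from whole kidneys of male wild-type C57BL/6 mice, to ask how time of day and an EpSA diet act on the kidney. The mice were 6 weeks old when feeding began and were fed for 14 weeks with chow or with a high-fat diet that held 3% EpSA, under 12 h of light per day. Kidneys were collected at zeitgeber time (ZT, hours since the lights came on) 1, 5, 9, 13, 17, 21 and 25, and 3 mice are listed for each diet and time, 42 in all. The deposited values are 1 mean per diet and time, here called a pool, taken as FPKM, a level per length of transcript and per total of fragments. With 7 pools per diet, the spread given here is between times and not between mice, and the depth is unknown. Because a matching high-fat diet lacking EpSA is not analysed here, the roles of fat and of EpSA cannot be told apart, and in whole tissue fewer cells of a type cannot be told apart from less RNA per cell.

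Cells of the kidney's proximal tubule reclaim amino acids from the filtrate and oxidise part of them in mitochondria and peroxisomes. Ftcd ends histidine breakdown by passing a one-carbon unit to tetrahydrofolate, and Prodh2 and Prodh open the oxidation of hydroxyproline and proline. Gldc is the decarboxylase of the glycine cleavage system, Hpd and Hgd act in sequence on tyrosine, and Dao oxidises D-amino acids. Agxt2 is a mitochondrial aminotransferase that clears dimethylarginine, and Bhmt2 methylates homocysteine. Hydroxyproline breakdown passes through glyoxylate, from which oxalate, a component of kidney stones, is made.

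RefSeq promoter windows (GRCm38.p6, 250 bases before to 50 after the gene start) were matched for 9 of the 9 genes, 12 windows in all. Shown are the 250 bases before the start of Ftcd and Prodh2, the pair higher in EpSA, and of Prodh, the functional counterpart of Prodh2. Capitals mark GTTAAT on either strand, the core that HNF1 factors of kidney and liver recognise. The windows are chr10:76575398-76575647 on the plus strand for Ftcd, chr7:30493408-30493657 on the plus strand for Prodh2, and chr16:18089191-18089440 on the minus strand for Prodh, each written 5′ to 3′.
Ftcd: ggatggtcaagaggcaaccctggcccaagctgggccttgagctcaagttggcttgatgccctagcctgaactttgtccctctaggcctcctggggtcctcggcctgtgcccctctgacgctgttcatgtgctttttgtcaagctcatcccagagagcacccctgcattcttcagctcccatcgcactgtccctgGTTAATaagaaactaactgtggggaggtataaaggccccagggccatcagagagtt
Prodh2: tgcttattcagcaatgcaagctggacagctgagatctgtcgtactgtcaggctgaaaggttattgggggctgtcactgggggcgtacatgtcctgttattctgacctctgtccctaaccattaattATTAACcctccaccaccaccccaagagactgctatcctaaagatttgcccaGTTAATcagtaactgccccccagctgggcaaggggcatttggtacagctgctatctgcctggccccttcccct
Prodh: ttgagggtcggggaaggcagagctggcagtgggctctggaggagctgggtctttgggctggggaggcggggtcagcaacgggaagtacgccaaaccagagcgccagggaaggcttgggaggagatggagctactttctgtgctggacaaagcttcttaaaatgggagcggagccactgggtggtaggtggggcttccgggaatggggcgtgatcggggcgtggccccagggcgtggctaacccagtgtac
GTTAAT stood at -56 from the start of Ftcd and at -124 (minus strand) and -73 from that of Prodh2, and no window of the other 7 genes held it. Of 32851 RefSeq windows of 300 bases, 7.10% held this motif on either strand. The windows of 1 chromosome, which holds none of the 9 genes, were left out of this background. Its shares are per window and not per gene. The nuclear receptor letters AGGTCA, found in 16.3% of windows, stood in those of 4 genes (Prodh2, Hgd, Agxt2 and Dao), and CAAAGTCCA, the HNF4 core, found in 0.475%, in that of Agxt2. Among letters read by clock factors, CACGTG (7.15% of windows) was in 1 of 3 Dao windows and TTANGTAA (2.32%) in none. None of these matches overlapped a match to another motif in the Ftcd and Prodh2 windows. A match is a string of letters, and binding was not measured. The Prodh window lies within the longer Prodh gene of the GENCODE annotation. The Prodh2 bases shown, which end at 30493657, run past the GENCODE start of Prodh2 at 30493622. Positions of matches are counted from the RefSeq start.

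In GENCODE coordinates of GRCm38, Ftcd (ENSMUSG00000001155) spans chromosome 10, 76575648 to 76590338, on the plus strand, and Prodh2 (ENSMUSG00000036892) chromosome 7, 30493622 to 30513402, on the plus strand. Prodh (ENSMUSG00000003526) spans chromosome 16, 18060357 to 18090203, minus strand, and Gldc (ENSMUSG00000024827) chromosome 19, 30098447 to 30175429, minus strand. Hgd (ENSMUSG00000022821) lies at chromosome 16, 37580153 to 37632020, plus strand, and Hpd (ENSMUSG00000029445) at chromosome 5, 123171807 to 123182727, minus strand. Agxt2 (ENSMUSG00000089678) lies at chromosome 15, 10358532 to 10410153, plus strand, Bhmt2 (ENSMUSG00000042118) at chromosome 13, 93655720 to 93674302, minus strand, and Dao (ENSMUSG00000042096) at chromosome 5, 114003703 to 114025682, plus strand. Prodh overlaps Dgcr6 (16.2 FPKM, mean of the 14 pools) and Hpd overlaps Psmd9 (3.73 FPKM) on the opposite strand. Hgd overlaps the antisense gene Gm46559 (1.02 FPKM). Whether strand was used in counting is not given in the sources used here, so reads of these pairs may not be separable. On the same strand, where strand would not separate reads, Hpd overlaps Gm26745, not analysed here, and Agxt2 overlaps Gm21973, listed at 0 in every pool.

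The tissue carried the RNA of the proximal tubule. All 12 of its markers were abundant enough to test, led by Kap at 42200 FPKM in chow and 35200 in EpSA (means over times), and their summed level was 36880 to 66110 FPKM in chow and 32190 to 43540 in EpSA. Of these 12, 4 were above 0 and 8 below 0 for the diet difference (median -0.03), and none passed the test. Pools stood apart in other ways. Adrenal markers summed to 108 FPKM in EpSA at ZT 9 and to at most 1.66 in the other 13 pools. Immune markers summed to between 183.8 and 1080 FPKM in chow, with the 4 highest sums at ZT 1 to 13, and to between 187.5 and 247 in EpSA. Of 8 nuclear-retained RNAs, a list chosen with earlier results of these data known, 6 were tested and 6 of 6 were above 0. Of these, 4 (Pnisr, Ccnl2, Rnpc3 and Firre) rose in EpSA in limma's test with Benjamini-Hochberg adjustment over all tested genes. Of all tested genes 0.172% rose, and the count of 4 is no independent result, given how the list was chosen. These 4 calls had adjusted p of 0.047 or 0.048 in limma and were lost in 10 or 11 of up to 15 other settings. Those losses include each of the 7 settings with 1 time left out. Adjusted p in limma rose to at most 0.26, and no sign changed. The sum of the 8 was 415 to 565 FPKM in chow and 557 to 713 in EpSA. Its part in the diet differences of the enzymes was not tested.

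The enzymes differed widely in level, and the order was nearly the same on both diets. Hgd was highest, with a mean over times of 155 FPKM in chow and 149 in EpSA, followed by Dao (112 and 108), Bhmt2 (63.0 and 61.8) and Agxt2 (41.9 and 44.8). The ranges over times of these 4 did not overlap each other within a diet. Prodh (26.9 and 24.8), Prodh2 (22.4 and 27.6) and Gldc (20.2 and 19.2) formed a middle group whose ranges overlapped, with Prodh above Prodh2 in chow and below it in EpSA. Hpd (15.1 and 13.3) overlapped Gldc in both diets, and Ftcd (6.91 and 10.2) was lowest, overlapping Hpd in EpSA only.

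**Figure D1:**
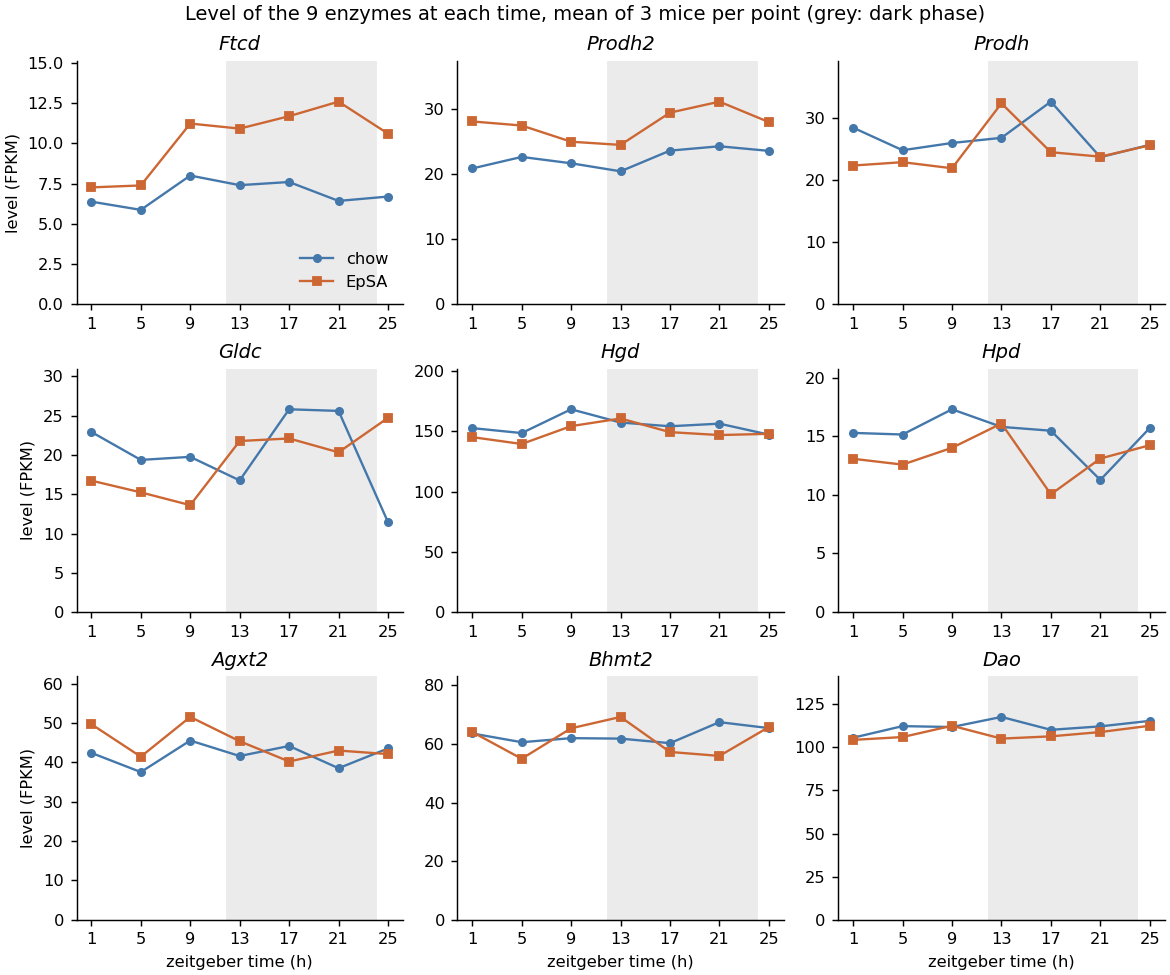
Level in FPKM (vertical axes, each from 0) of the 9 enzymes against zeitgeber time in hours, 1 panel per gene, with 1 point per diet and time (the deposited mean of 3 mice) and the dark phase in grey. The EpSA points of Ftcd and Prodh2 lie above the chow points at 7 of 7 times, and the lines of the other 7 enzymes meet or cross.

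Ftcd was higher in EpSA at every time, and the gap was widest at ZT 21. From ZT 1 to ZT 25 its chow pools held 6.38, 5.87, 7.997, 7.40, 7.60, 6.42 and 6.69 FPKM. In EpSA they held 7.26, 7.38, 11.2, 10.9, 11.7, 12.6 and 10.6 FPKM. The EpSA pools at ZT 1 and ZT 5 lay inside the chow range and the other 5 lay above the highest chow pool. The ratio of EpSA to chow, in the same order, was 1.14, 1.26, 1.40, 1.47, 1.54, 1.96 and 1.58, and that of the means was 1.48. On the log2(FPKM + 1) scale the Ftcd difference was 0.49 ± 0.08 (SE from limma, with the variance moderated over all tested genes). These values chose the gene and carry no test. For reference, 3.81% of the 13344 tested genes were higher at 7 of 7 times.

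Ftcd is also abundant in liver, so 10 liver markers were read beside it. Their sum was 778.3 to 1077 FPKM in chow and 569.7 to 981.8 in EpSA, 7 of the 10 were tested, and none passed. Most of the sum was Cyp2e1 (means 758 in chow and 641 in EpSA) and Ttr (123 and 109). Serpina1a (18.3 and 12.2), Fga (9.44 and 9.12), Apoa2 (7.80 and 8.48) and Apoa1 (0.783 and 1.25) were lower. Alb ranged from 2.48 to 4.99 FPKM in chow. In EpSA it was highest at ZT 21 (9.14) and ZT 9 (8.70), which for Ftcd were the highest and the third highest EpSA pools. Other markers, too low to test, were high in the same EpSA pools. Ahsg stood at 0.697 FPKM at ZT 21 and 0.89 at ZT 9, against at most 0.337 in chow, and Hamp at 0.96 and 1.24, against at most 0.627. Fgb reached 0.783 at ZT 21 and 0.487 at ZT 9, against at most 0.357 in chow. It also stood at 0.65 in EpSA at ZT 5, where Ftcd was 7.38 FPKM, and at 0.473 at ZT 17. The summed level of the 10 liver markers was lowest of the 14 pools in EpSA at ZT 21 (569.7 FPKM). Being mostly Cyp2e1 and Ttr, that sum does not describe Alb, Ahsg, Hamp and Fgb, which were high in the same pool. In EpSA at ZT 17 Alb was lowest (2.50 FPKM) and Ftcd stood at 11.7. The part of liver RNA in the Ftcd difference was not tested. Without ZT 21 the Ftcd difference was 0.425 (log2), and without ZT 9, the pool with adrenal RNA, it was 0.50.

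Of the earlier steps of histidine breakdown, Uroc1 (urocanase) was the 1 enzyme of 3 abundant enough to test. It was 11.2 FPKM in chow and 12.2 in EpSA (means), a log2 difference of 0.13 ± 0.08 with adjusted p = 0.4 in limma, and it was higher in 4 of 7 times. Hal and Amdhd1 were too low to test, with highest pools of 0.077 and 0.957 FPKM. Of 8 enzymes that handle folate one-carbon units, the acceptors of the Ftcd reaction, 6 were tested, 3 were above 0 and 3 below (median -0.0023), and none passed. Aldh1l1, which oxidises formyl-tetrahydrofolate, was at -0.09 ± 0.04 (log2).

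Prodh2 was higher in EpSA at every time without overlap between the diets. In chow its pools held 20.8, 22.6, 21.6, 20.4, 23.6, 24.2 and 23.5 FPKM from ZT 1 to ZT 25. In EpSA they held 28.0, 27.4, 24.9, 24.4, 29.4, 31.1 and 27.9 FPKM. The lowest EpSA pool, at ZT 13, stood at 24.4 FPKM and the highest chow pool, at ZT 21, at 24.2. The ratio was highest at ZT 1 (1.35) and lowest at ZT 9 (1.15), with 1.23 for the means, and the log2 difference was 0.29 ± 0.04 (SE). As for Ftcd, no test is given, and 0.427% of tested genes had every EpSA pool above every chow pool.

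Prodh, which opens proline breakdown as Prodh2 does that of hydroxyproline, had no higher mean in EpSA. In chow it was 28.4, 24.8, 26.0, 26.8, 32.6, 23.7 and 25.7 FPKM from ZT 1 to ZT 25. In EpSA the levels were 22.3, 22.9, 21.9, 32.3, 24.5, 23.8 and 25.6 FPKM. The diets overlapped, and each had 1 high pool, at ZT 17 in chow and at ZT 13 in EpSA. Its diet difference was -0.12 ± 0.08 on the log2 scale (95% interval -0.29 to 0.05), higher in 2 of 7 times, with adjusted p = 0.431 in limma.

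The later enzymes of the hydroxyproline route went in both directions. Hoga1, which splits the route's last intermediate into glyoxylate and pyruvate, was higher in EpSA at 7 of 7 times, with means of 63.7 and 71.8 FPKM. Its log2 difference was 0.17 ± 0.06, and it missed the threshold (limma adjusted p = 0.16). Its lowest, median and highest pools were 50.2, 69.2 and 73.6 FPKM in chow and 58.3, 72.0 and 83.7 in EpSA, so the diets overlapped. Grhpr, which reduces glyoxylate, was lower in EpSA at 6 of 7 times (-0.17 ± 0.05, adjusted p = 0.16 in limma). Aldh4a1, which both routes share, was at -0.06 ± 0.05. Agxt, which turns glyoxylate into glycine in liver, reached at most 0.057 FPKM. Of the 5 genes listed besides Prodh2 and Prodh, 4 were tested, 1 was above 0 and 3 below (median -0.06).

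Gldc was the most variable of the 9 enzymes over the day. Its chow pools stood at 22.9, 19.4, 19.8, 16.8, 25.8, 25.6 and 11.5 FPKM from ZT 1 to ZT 25, and its EpSA pools at 16.7, 15.2, 13.6, 21.8, 22.1, 20.3 and 24.7. EpSA was lower at 5 of 7 times, while at ZT 25 it was 2.16 times the chow level, which was the lowest chow pool. Over the 7 times the log2 difference was -0.06 ± 0.18 (95% interval -0.46 to 0.35), adjusted p = 0.891 in limma. Without ZT 25 it was -0.24 ± 0.11 with adjusted p = 0.318, and without ZT 1 or ZT 9 it was 0.00638 or 0.0188, so its sign depended on single times. Of the other 10 genes of glycine and serine breakdown 8 were tested, 3 were above 0 and 5 below (median -0.03), and none passed. Gcat, which cleaves aminoketobutyrate to glycine, was at -0.20 ± 0.11, and Shmt1, which interconverts serine and glycine, at 0.10 ± 0.06.

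Dao, the peroxisomal oxidase of D-amino acids, was among the steadiest. Its pools were 105.6, 112, 112, 118, 110.2, 112 and 115 FPKM in chow and 104, 106, 113, 105, 106, 109 and 113 in EpSA. It was lower in EpSA at 6 of 7 times by a small margin, and the ranges overlapped. On the log2 scale this came to -0.05 ± 0.04 (95% interval -0.15 to 0.04), adjusted p = 0.494 in limma. Exact two-sided sign flips of the 7 time differences gave Dao p = 0.0312, where 0.0156 is the smallest p that 128 flips allow. That was the lowest of 7 such tests, and it is not adjusted for their number. The 3 other oxidases tested of 4 listed were above 0, with Hao2 (an oxidase of hydroxy acids) at 0.11 ± 0.08 and Pipox (pipecolate and sarcosine) at 0.10 ± 0.05, none passing.

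Hpd and Hgd, consecutive steps of tyrosine breakdown, were both lower in EpSA at 5 of 7 times. Hpd was 15.3, 15.1, 17.3, 15.8, 15.5, 11.3 and 15.7 FPKM in chow and 13.1, 12.6, 14.0, 16.1, 10.04, 13.1 and 14.2 in EpSA. Its low pools were at ZT 21 in chow and at ZT 17 in EpSA, and the ranges overlapped. Its log2 difference was -0.18 ± 0.08 (95% interval -0.36 to 0.005), adjusted p = 0.274 in limma. Hgd was 153, 149, 168, 157, 154, 157 and 147 FPKM in chow and 145, 139.6, 154, 161, 149, 147 and 148 in EpSA. Its log2 difference was -0.06 ± 0.04 (95% interval -0.15 to 0.04), adjusted p = 0.498 in limma.

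Fah, the last enzyme of that route, had no overlap between the diets. Its means were 189 FPKM in chow and 160.0 in EpSA, and its pools ran from 181 to 199.9 in chow and from 140.2 to 178 in EpSA. The log2 difference was -0.24 ± 0.05, lower in 7 of 7 times, with adjusted p = 0.075 in limma, above the threshold of 0.05. In the background, 0.465% of tested genes had all EpSA pools below all chow pools. Tat, the liver's tyrosine aminotransferase, reached at most 0.107 FPKM. Besides Hpd and Hgd, 5 of 6 listed genes were tested, with 1 above 0 and 4 below (median -0.04).

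Agxt2 was the only other enzyme of the 9 with a positive mean difference. It was 42.4, 37.6, 45.6, 41.6, 44.2, 38.5 and 43.6 FPKM in chow and 49.7, 41.5, 51.6, 45.4, 40.3, 43.0 and 42.1 in EpSA. EpSA was higher at 5 of 7 times, lower at ZT 17 and ZT 25, and the ranges overlapped. For Agxt2 the log2 difference was 0.09 ± 0.05 (95% interval -0.03 to 0.21), adjusted p = 0.369 in limma. The 11 other aminotransferase and dimethylarginine genes tested, of 12 listed, were all below 0 (median -0.10), and none passed. Aadat (aminoadipate and kynurenine) was at -0.25 ± 0.08 and Kyat1 (kynurenine) at -0.19 ± 0.06, both lower at 7 of 7 times with adjusted p of 0.16 and 0.13 in limma.

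Bhmt2 was at nearly the same level on both diets. In chow it was 63.6, 60.6, 62.0, 61.8, 60.3, 67.4 and 65.4 FPKM and in EpSA 64.1, 55.0, 65.4, 69.2, 57.3, 55.9 and 65.8. EpSA was higher at 4 of 7 times and held both the lowest and the highest pool. A log2 difference of -0.03 ± 0.06 (95% interval -0.16 to 0.09) had adjusted p = 0.786 in limma. Its relative Bhmt, which uses betaine, reached at most 0.96 FPKM. Of 17 other genes of choline, betaine and sulfur amino acids, 16 were tested, 5 were above 0 and 11 below (median -0.06), and none passed. Cbs, which makes cystathionine from homocysteine, was at -0.37 ± 0.06 (adjusted p = 0.057 in limma), with pools of 20.5 to 26.9 FPKM in chow and 14.7 to 20.9 in EpSA. Gnmt, which methylates glycine, was at -0.34 ± 0.08 (adjusted p = 0.093 in limma). Both were lower at 7 of 7 times.

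**Figure D2:**
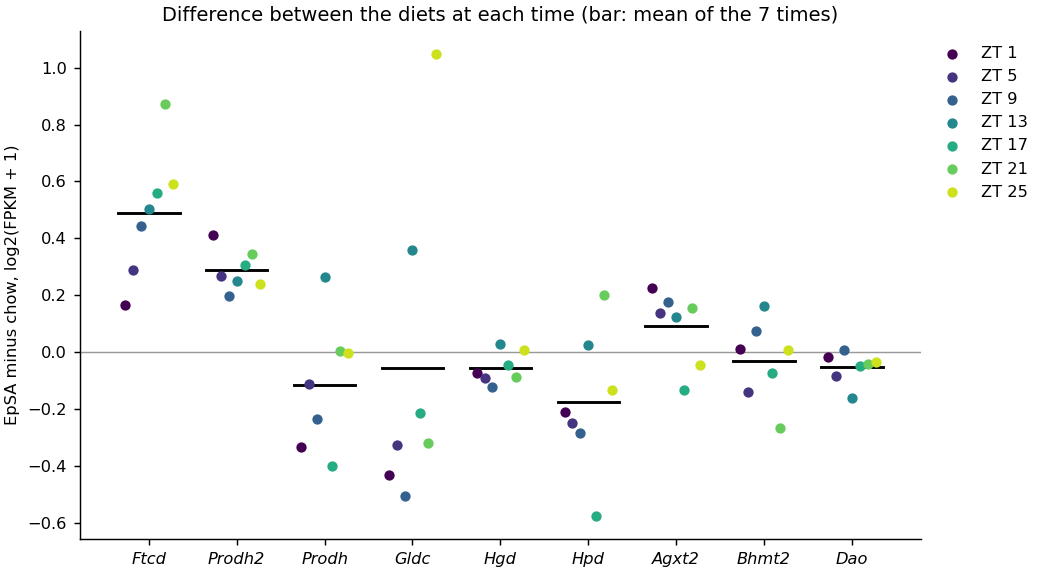
EpSA minus chow on the log2(FPKM + 1) scale for each enzyme, with 1 point per zeitgeber time and a bar at the mean of the 7 times. Points of Ftcd (0.16 to 0.87) and Prodh2 (0.20 to 0.41) lie above 0, while each of the other 7 enzymes has points on both sides, the farthest being Gldc at ZT 25 (1.05).

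None of the 7 enzymes that were not chosen on the diet contrast passed its test in limma, against 0.247% of all tested genes. At an unadjusted p under 0.05 the count was also 0 of 7, against 19.2% of all tested genes. Their log2 differences ran from -0.18 (Hpd) to 0.09 (Agxt2), with 1 above 0 and 6 below and a median of -0.06, where the median of all tested genes was -0.01. The upper bound of the 95% interval was 0.35 for Gldc, 0.21 for Agxt2 and at most 0.09 for the other 5. Under other settings of filter, pseudocount, scaling and times the count stayed 0 of 7.

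Over the 13 amino acid lists together, without the 9 enzymes, 96 of 110 genes were tested, 34 were above 0 and 62 below, and 0 passed in limma in either direction. That is 35.4% above 0, where 46.1% of all tested genes were, and the median was -0.03. At an unadjusted p under 0.05, 4 were higher and 18 lower, against 1142 and 1414 of all tested genes. At 7 of 7 times 1 gene (Hoga1) was higher and 10 were lower, where 508 and 551 of all tested genes were. Of the 9 enzymes 0 were lower at 7 of 7 times, against 4.13% of tested genes. In branched-chain amino acid breakdown 22 of 22 genes were tested, with 5 above 0 and 17 below (median -0.06). In lysine breakdown 6 of 6 were tested, with 4 above 0 and 2 below (median 0.02). Among them were Aadat, also given above, at -0.25 ± 0.08 and Dhtkd1 at 0.12 ± 0.10. For glutamine, glutamate and ammonia 6 of 6 were tested, with 4 above 0 and 2 below (median 0.02), Glud1 (glutamate dehydrogenase) at 0.16 ± 0.09 and Glul (glutamine synthetase) at 0.11 ± 0.11. Of the arginine and urea cycle 5 of 8 were tested, with 4 above 0 and 1 below (median 0.04), Gatm (creatine synthesis) at 0.20 ± 0.08 and Arg2 at -0.17 ± 0.08. Of tryptophan breakdown 7 of 8 were tested, with 2 above 0 and 5 below (median -0.07).

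**Figure D3:**
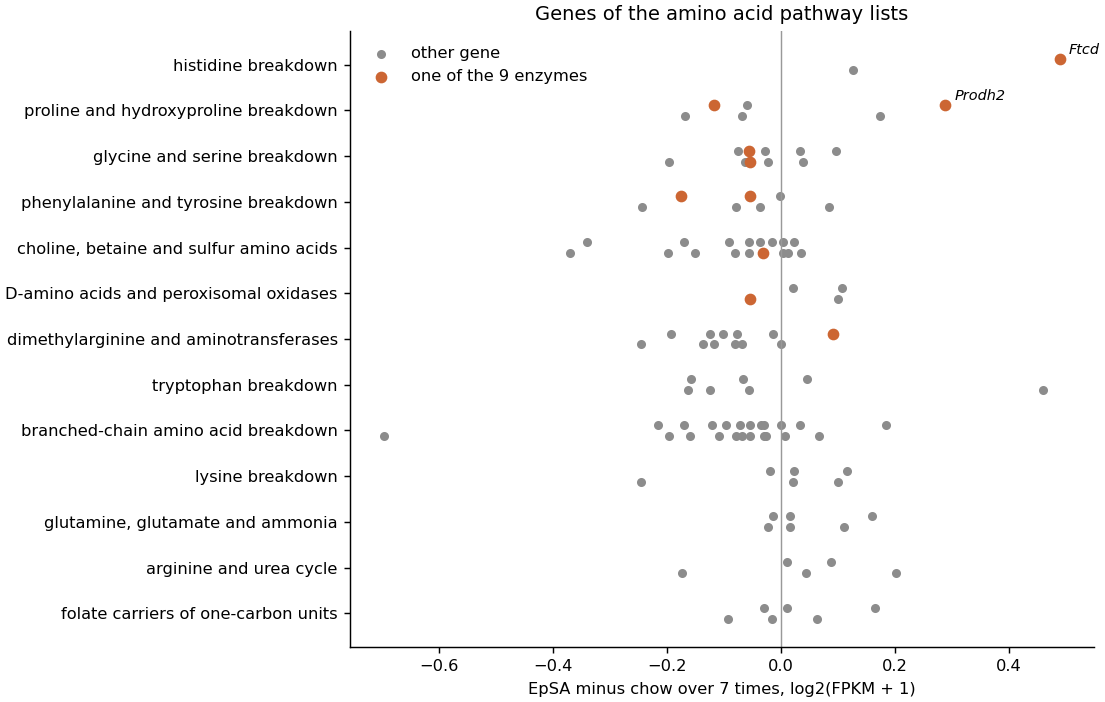
EpSA minus chow on the log2(FPKM + 1) scale (horizontal axis, mean over 7 times) for each tested gene of the 13 amino acid lists, 1 row per list, with the 9 enzymes in orange and other genes in grey. Ftcd (0.49) and Prodh2 (0.29) stand at the right of their lists, and 62 of the 96 grey genes lie left of 0, counting a gene of several lists once.

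Gldc varied most over the day on both diets, and Dao least. The coefficient of variation over the 7 times was 25.3% in chow and 21.2% in EpSA for Gldc, and 11.1% and 20.4% for Ftcd. It was 3.41% and 3.17% for Dao and 4.50% and 4.54% for Hgd, where the median of all tested genes was 9.999% in chow and 9.54% in EpSA. Hpd (12.2% and 13.8%) and Prodh (10.98% and 14.5%) lay above the median in both diets. Prodh2 (6.60% and 8.45%) and Bhmt2 (4.18% and 9.12%) lay below it in both, and Agxt2 (7.03% and 9.68%) on either side.

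A 24 h cosine was fitted to each diet to ask which genes cycle. No enzyme passed in limma in chow (adjusted p 0.55 to 0.93), where 0.0974% of tested genes did, or in EpSA (0.57 to 0.98), where 0.0450% did. At an unadjusted p under 0.05 the counts were 0 of 9 in chow, against 10.2% of tested genes, and 1 of 9 in EpSA, against 8.63%. The 1 was Prodh2, with an amplitude of 0.14 ± 0.05 (log2, SE) peaking at 21.3 h in EpSA (limma adjusted p = 0.57), and 0.07 ± 0.05 peaking at 21.1 h in chow. Ftcd had amplitudes of 0.14 ± 0.05 in chow, peaking at 13.4 h, and 0.28 ± 0.11 in EpSA, peaking at 16.4 h. The difference of rhythm between the diets passed for 0 of 9 enzymes (adjusted p 0.83 to 0.98) and for 0% of tested genes, and at an unadjusted p under 0.05 for 0 of 9, against 4.38%. For Ftcd its limma adjusted p was 0.83. The authors' deposited table gave a meta2d p of 0.29 in chow and 0.23 in EpSA for Ftcd and of 0.84 and 0.099 for Prodh2. In the authors' deposited table no enzyme had a p under 0.05 in either diet, where 11.8% of tested genes did in chow and 9.82% in EpSA.

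ZT 1 and ZT 25 are the same clock hour in separate mice. The level at ZT 25 relative to ZT 1 was 0.499 in chow and 1.48 in EpSA for Gldc, and 1.05 and 1.46 for Ftcd. For the other 7 enzymes the ratio lay between 0.847 (Agxt2 in EpSA) and 1.15 (Prodh in EpSA). The median of all tested genes for this comparison was an absolute log2 difference of 0.12 in both diets.

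The enzymes shared no common course. Over the 36 pairs, Pearson's r of log2(FPKM + 1) was above 0 in 18 pairs over the 7 chow pools and in 25 over the 7 EpSA pools, and in 14 of these in both. The medians were 0.0072 and 0.15. Ftcd and Prodh2 had r = 0.64 over the 14 pools (Spearman's rho 0.59), yet -0.22 within chow and 0.11 within EpSA, so the pooled value was not matched within either diet. Ftcd and Agxt2 had r = 0.81 in chow and -0.17 in EpSA. Prodh2 ran against Hpd in both diets (-0.56 and -0.64). The points share the diet and the mice of each pool, and these values are descriptions with 7 points each.

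**Figure D4:**
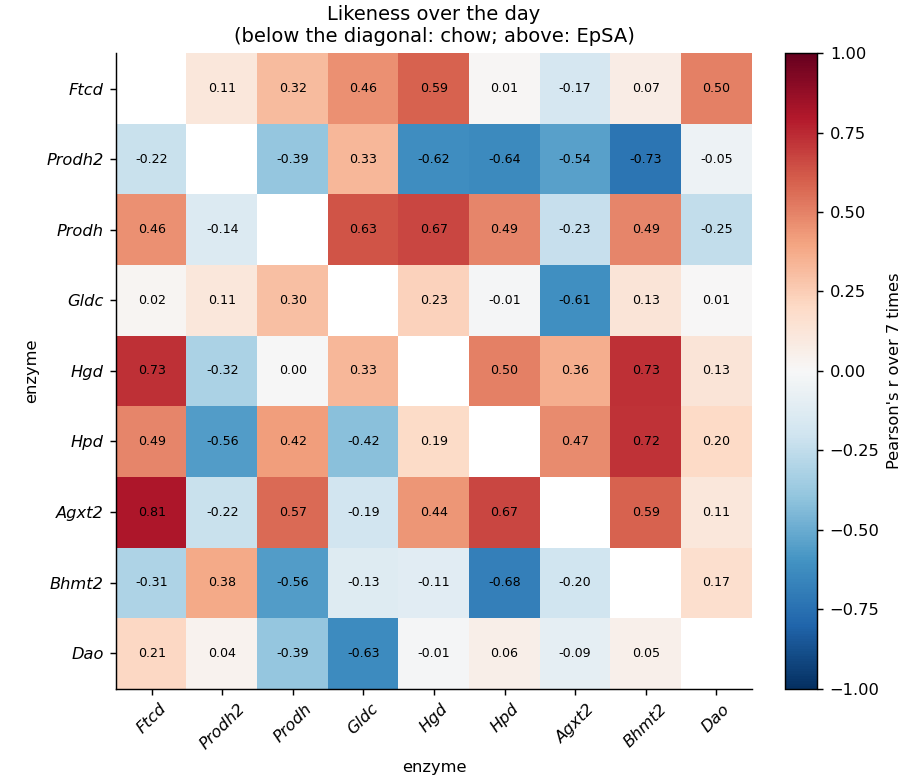
Pearson's r between each pair of the 9 enzymes over the 7 zeitgeber times on the log2(FPKM + 1) scale, chow below the diagonal and EpSA above it, coloured from -1 (blue) to 1 (red). Ftcd and Hgd are the 1 pair with r above 0.5 on both sides of the diagonal (0.73 in chow and 0.59 in EpSA).

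The genes most like Ftcd over the 14 pools were Slc25a37 (r = 0.93), an importer of iron into mitochondria, Nkain1 (0.91), Vps13a (0.91), a lipid transfer protein, Myo19 (0.90), a mitochondrial myosin, and Rev1 (0.90), a DNA polymerase. Slc25a37 had r = 0.93 with Ftcd within chow and 0.84 within EpSA, and a log2 diet difference of 0.23. Those most like Prodh2 were the zinc finger genes Zfp65 (0.93), Zfp292 (0.92) and Zfp738 (0.90) and the RNA-binding proteins Fubp1 (0.92) and Tial1 (0.90). Zfp65 had r = 0.78 within chow and 0.94 within EpSA, and Zfp292 0.33 and 0.96. The nuclear RNA Pnisr, at 0.37 ± 0.06 (log2, limma adjusted p = 0.047, lost in 11 of 15 other settings), had r = 0.84 with Ftcd and 0.81 with Prodh2 over the 14 pools. Within a diet these were 0.25 in chow and 0.70 in EpSA for Ftcd, and 0.60 and 0.15 for Prodh2. Slc5a2, the glucose transporter SGLT2 of the early proximal tubule, was higher in EpSA at 7 of 7 times (0.36 ± 0.08, limma adjusted p = 0.078) and had r = 0.70 with Ftcd (0.11 in chow, 0.47 in EpSA) and 0.77 with Prodh2 (0.24 and 0.62). Slc5a12, a lactate transporter, was the proximal tubule marker farthest from 0 (0.39 ± 0.15, limma adjusted p = 0.21) and was higher at 5 of 7 times. It had r = 0.68 with Ftcd (0.32 and 0.78) and 0.52 with Prodh2 (0.03 and 0.10). Of all 12 proximal tubule markers, 4 were above 0 for the diet difference and 8 below (median -0.03). Slc7a13, a transporter of the late proximal tubule, was at -0.28 ± 0.09 (limma adjusted p = 0.14) and had r = -0.72 with Ftcd and -0.49 with Prodh2 over the 14 pools. Within chow these were 0.59 and 0.21 and within EpSA -0.60 and 0.099, so the sign turned in 3 of 4 cases. The part of tubule segments or of nuclear RNA in the level of both enzymes was not tested.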

How the data were processed

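Kidney RNA of 42 mice was read as paired ends of 150 bases, per the labels' protocols. The sources used here give no aligner, counter, genome build or normalization. The authors deposited 1 table per diet with 56691 genes and 7 expression columns, taken as FPKM although the headers name no unit. All 793674 values end in 0, 3 or 7 thousandths, which fits a mean of 3 rounded values, and every column is treated as the authors' mean over 3 mice. The treated table's header carries another abbreviation and was matched through the file that the EpSA samples name. The tables also hold deposited meta2d p-values and q-values, phases and amplitudes, with amplitude over baseline as a deposited ratio, per the file headers. Of the identifiers, 52073 had a symbol and 4618 had none. For a symbol with several identifiers (Gcat) the one with the higher mean was used.

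The 13344 genes averaging 1 FPKM or more entered limma as log2(FPKM + 1), pseudocount 1 (limma 3.58.1, R 4.3.3, Benjamini-Hochberg at 0.05). Folds on this scale are understated for low genes. Time was a factor in the diet model (6 residual degrees of freedom), the 24 h cosine 4 and its interaction with diet 8. Each pool counted as 1 sample, so no p-value measures the spread between mice. Those for diet rest on how the diet difference varied between times, and those for rhythm on the scatter about the cosine. Variances were fitted with a mean-variance trend and robust moderation, a choice made because it gave the counts of an earlier analysis of these data. The models were tested on simulated data. Members, lists and motifs were chosen with earlier results of these data known. Named besides the 9 enzymes are, per list, genes passing the diet test or the 2 farthest from 0, the 5 most correlated with Ftcd and with Prodh2 (model-number genes left out), and leading markers. Hoga1 and Grhpr follow from this rule. Some genes that it selects are not reported here. Uroc1's neighbours Hal and Amdhd1, and Aldh4a1, Agxt, Tat, Bhmt and the liver, proximal tubule and nuclear markers beyond 3, were named after their values were seen. Alternatives covered pseudocount, filter, scaling, single times, the time term, the variance trend and the deposited q. Summaries and plots used matplotlib 3.10.9, scipy 1.17.1, pandas 2.3.3 and numpy 2.4.6 under Python 3.11.15.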

Additional observations from a re-analysis of the deposited data

Results flagged for a closer look

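Checks for a pool far from the other 6 of its diet were run for 18 groups (9 enzymes in 2 diets), of which chance marks about 1 in 20, and 2 were marked. Prodh in EpSA was highest at ZT 13, at 32.347 FPKM, with the next pool at 25.59, a gap of 0.647 of the whole range. In chow the highest Prodh pool was at ZT 17 (32.6 FPKM). Hpd in chow was lowest at ZT 21, at 11.267 FPKM, with the next pool at 15.14, a gap of 0.643 of the range. Without ZT 21 the log2 diet difference of Hpd was -0.24 ± 0.07, with adjusted p = 0.182 in limma.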

How the results depend on the processing

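The limits are that each value is a mean without its spread, that depth is unknown, and that fat and EpSA are joined. No paired analysis was possible because the columns are means that carry no replicate number. The diets were matched by time instead. The differences of Ftcd (0.425 to 0.543) and Prodh2 (0.268 to 0.336) kept their sign over 15 other settings, and the other 7 enzymes stayed short of the threshold in 105 refits (adjusted p 0.182 to 0.991). Signs turned for Hgd (0.0116), Bhmt2 (0.0328) and Dao (0.0179) under quantile normalization, for Gldc without ZT 1 (0.00638) or ZT 9 (0.0188), and for Bhmt2 without ZT 21 (0.00736). No setting gave a rhythmic enzyme. Counts over all genes, 23 higher and 10 lower for diet and 13 and 6 rhythmic in chow and EpSA, moved as follows, and the cause was not tested. With pseudocount 0.1, 8 were rhythmic in chow. With no filter the 4 counts were 0, 0, 0 and 0 over 38370 genes. With a mean of at least 5 there were 25 lower and 7 rhythmic in chow. Equal sums gave 1 higher and 1 lower, equal medians 14, 3 and 6 rhythmic in chow, and quantiles 53, 17 and 8. Leaving out ZT 1 gave 2, 0, 0 and 2, ZT 5 gave 0, 0 and 3 in chow, ZT 9 gave 3, 5, 0 and 0, ZT 13 gave 1, 0, 0 and 2, ZT 17 gave 6, 1, 0 and 3, ZT 21 gave 2, 1, 0 and 1, and ZT 25 gave 0, 0, 0 and 2. Without the time term 96 were higher and 60 lower. Without the variance trend, an alternative added after seeing the data, 1 was higher and 2 lower. The deposited q gave 0 rhythmic in chow and 2 in EpSA.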

Other observations

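Outside the routes of the 9 enzymes, the largest difference among the tested genes of the amino acid lists was that of Bcat1, the cytosolic aminotransferase of branched-chain amino acids. Its pools ran from 4.27 to 10.7 FPKM in chow (median 7.09) and from 2.24 to 5.66 in EpSA (median 4.20), with EpSA lower at 6 of 7 times and overlapping ranges. The log2 difference was -0.70 ± 0.15, and with adjusted p = 0.075 in limma it missed the threshold. Bckdk, the kinase that restrains the branched-chain dehydrogenase, was at -0.22 ± 0.06 (adjusted p = 0.11 in limma), lower at 6 of 7 times. Kynu, the kynureninase of tryptophan breakdown, was at 0.46 ± 0.16 (adjusted p = 0.18 in limma), with pools of 0.613 to 1.66 FPKM in chow and 0.897 to 2.99 in EpSA. It was highest in EpSA at ZT 21, where Alb was highest as well. In EpSA at ZT 17, where Alb was lowest (2.50 FPKM), Kynu stood at 2.12 FPKM. At ZT 9, where Alb was 8.70 FPKM, Kynu also stood at 2.12. Acmsd, which steers tryptophan away from NAD synthesis, was at -0.16 ± 0.13.

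No podocyte, red blood cell, immune, distal or fat marker passed the test in limma, and the values are given as descriptions. At an unadjusted p under 0.05 the counts were 5 of 5, 5 of 5, 5 of 7, 3 of 6 and 1 of 5, against 19.2% of all tested genes. The 5 podocyte markers were above 0 (median 0.22), led by Nphs1 at 0.30 ± 0.08 (adjusted p = 0.12 in limma). The 5 red blood cell markers were below 0 (median -0.43), among them Hbb-bs at -0.43 ± 0.08 (adjusted p = 0.058 in limma). The 7 immune markers were also below 0 (median -0.57), with Cd74 at -1.10 ± 0.39 (adjusted p = 0.19 in limma). Of thick ascending limb and distal markers, 3 of 6 were above 0 and 3 below, with Umod at -0.39 ± 0.11 (adjusted p = 0.12 in limma). Of 5 fat markers, 1 was above 0 and 4 below (median -0.28).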
